A study of Homo sapiens with 6 samples.

Results

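The pregnancy-specific glycoprotein genes (PSG) were taken as every row of the expression table whose symbol is PSG followed by a number. The rule gave 8 of the 13439 rows: PSG1, PSG2, PSG3, PSG4, PSG5, PSG6, PSG9 and PSG11. PSG7 and PSG8 were not analysed here. The family was chosen by its measured values in the comparison of treated with control cells, so the differences of its members between the treatments are given as a description, with no p-value.

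The cells were labelled Saos-2, an established human osteosarcoma line. In 1 group of 3 samples (AIL) they received 0.20 µM ailanthone, a plant quassinoid from Ailanthus altissima, for 24 h, a dose that the labels give as the IC50 of the compound. The control group of 3 samples (DMSO) received the solvent for the same 24 h, and both groups grew in DMEM with 10% fetal bovine serum. The labels name them biological replicates of 1 line but not how one culture was kept apart from another, and p-values thus measure only the spread among these 6 samples.

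PSG proteins are secreted glycoproteins of the carcinoembryonic antigen family, within the immunoglobulin superfamily. The syncytiotrophoblast of the placenta makes them in large amounts and releases them into the blood of the mother. They are known to act outside the cell, by binding integrins, proteoglycans and the latent form of TGF-beta, and the genes lie side by side as near-identical copies.

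All members lie on the minus strand of chromosome 19 between 42721638 and 43269530 of GRCh38, by the GENCODE v29 annotation. Along the chromosome the order was PSG3, PSG8, PSG1, PSG6, PSG7, PSG11, PSG2, PSG5, PSG4 and PSG9. These positions come from the reference, because the build used for counting is not given in the sources used here. The first 60 coding bases of the transcript with the longest coding sequence are printed to show how alike the copies are, and capitals mark bases that differ from PSG4 at the same position.
PSG4: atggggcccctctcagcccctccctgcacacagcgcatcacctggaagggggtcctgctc
PSG3: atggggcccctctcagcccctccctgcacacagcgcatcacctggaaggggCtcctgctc
PSG5: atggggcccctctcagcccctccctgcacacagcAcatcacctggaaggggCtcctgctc
PSG9: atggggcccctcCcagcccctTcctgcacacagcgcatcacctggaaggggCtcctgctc
PSG6: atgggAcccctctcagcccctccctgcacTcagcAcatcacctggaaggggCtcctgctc
PSG1: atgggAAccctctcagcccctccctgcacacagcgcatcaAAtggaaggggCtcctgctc
PSG11: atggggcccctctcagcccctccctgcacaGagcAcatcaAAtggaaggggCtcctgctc
PSG2: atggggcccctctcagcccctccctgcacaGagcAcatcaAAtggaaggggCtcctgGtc
PSG3 differed from PSG4 at 1 of these 60 bases, PSG5 at 2, PSG9 at 3, PSG6 at 4, PSG1 and PSG11 at 5 each, and PSG2 at 6. A short read from this stretch can therefore fit several of the genes.

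The likeness of whole transcripts was measured as the share of a gene's 50-base words, over all its protein-coding transcripts in GENCODE v29, that recur on either strand in any transcript of another gene. Between 17.6% (PSG6) and 39.0% (PSG9) of the words of a member recurred in some other gene, and 22.8% did for PSG4. With PSG4 itself the shares were 0.58% for PSG2, 0.84% for PSG11, 2.45% for PSG3, 3.33% for PSG6, 4.53% for PSG5, 4.90% for PSG9 and 5.49% for PSG1. Among the 8 members the closest pair was PSG11 and PSG2, with 16.3% of the words of PSG11 found in PSG2. How the authors' counting split reads among the copies is not given in the sources used here, so the value of each single member is uncertain to that extent, and its part in the differences below was not tested.

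**Figure D1:**
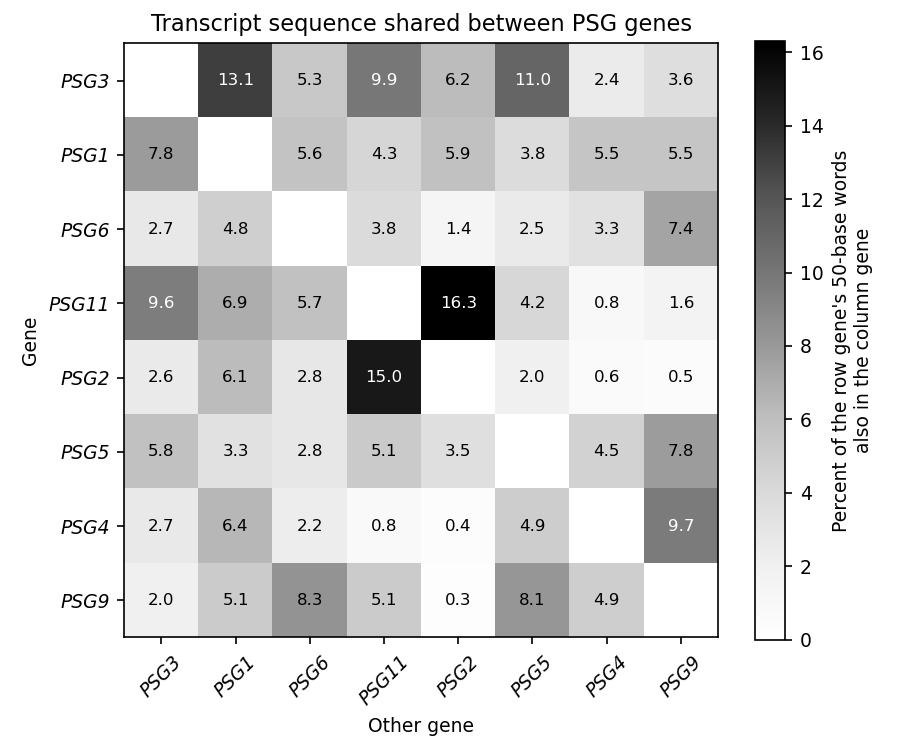
Percent of the 50-base words of the gene in each row that also occur in the gene in each column, for the 8 PSG genes in their order on the chromosome. PSG11 and PSG2 share most (16.3% of the words of PSG11), and the row of PSG2 holds 0.58% for PSG4.

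PSG4 was the most abundant member, with a mean of 11.9 CPM over the 6 libraries, and the other members lay at the low end of the table. Values are read counts scaled to library size by TMM, written CPM, in which 1 read corresponds to 0.0263 to 0.0307 CPM, and all 48 PSG values lay within 0.2 reads of a whole number of reads. The mean over the 6 libraries reached 1 CPM, the minimum for testing, in 2 of the 8 members, PSG4 and PSG9. Under DMSO, 3 of the 8 members had no read in at least 1 library, and under AIL all 8 had reads in every library.

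PSG4 measured 6.24, 6.99 and 7.31 CPM in the 3 DMSO libraries and 17.00, 16.26 and 17.54 CPM in the 3 AIL libraries. Each AIL library was more than 8 CPM above each DMSO library, and the replicates within a group lay close together. The means were 6.85 ± 0.549 and 16.9 ± 0.643 CPM (SD, n = 3), a ratio of 2.47, which rests on 696 and 1865 reads. The 95% counting interval of that ratio was 2.26 to 2.70, and this and the intervals below cover counting error only.

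PSG9, the last gene of the cluster, was the next in level. It measured 0.77, 0.70 and 0.64 CPM under DMSO and 2.23, 2.49 and 2.06 CPM under AIL. The lowest AIL library was above the highest DMSO library, and the ratio of the means was 3.21 (0.703 ± 0.0651 against 2.26 ± 0.217 CPM, SD, n = 3). In reads this was 71 against 249, with a 95% counting interval of the ratio of 2.47 to 4.27.

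PSG1 encodes the family member best known from work on the TGF-beta latency peptide and on integrins. It measured 0.34, 0.24 and 0.20 CPM under DMSO and 1.87, 1.33 and 1.36 CPM under AIL. The first AIL library stood above the other two, and the groups did not overlap. The 3 DMSO libraries held 26 PSG1 reads together and the AIL libraries 168, a depth-adjusted ratio of 5.95 (95% counting interval 3.92 to 9.37).

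PSG5 and PSG2, which are neighbours in the cluster, were near 0 in control cells. PSG5 measured 0.06, 0.06 and 0.08 CPM under DMSO, from 2, 2 and 3 reads, and 1.37, 0.72 and 1.25 CPM under AIL, from 52, 26 and 45 reads. The second AIL library was the lowest of its group and still 9 times as high as the highest DMSO library. The ratio from reads was 16.2 (95% counting interval 7.62 to 41.1). PSG2 had no read in 2 of the 3 DMSO libraries and 1 read in the third. Under AIL it had 28, 20 and 16 reads, or 0.74, 0.55 and 0.45 CPM. With 1 read against 64 the ratio was 58.9, and its 95% counting interval of 10.2 to 2364 shows how little the control side fixes it.

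The other 3 members stayed under 0.4 CPM in every library. PSG6 had 0, 2 and 5 reads under DMSO and 6, 14 and 7 reads under AIL, a ratio of 3.55 (95% counting interval 1.51 to 9.66). Its lowest AIL library exceeded its highest DMSO library by 0.02 CPM, less than the value of 1 read. PSG11 had 4, 1 and 1 reads under DMSO and 6, 4 and 6 under AIL, with a ratio of 2.46 (0.913 to 7.66). PSG3 had 0, 0 and 1 reads under DMSO and 1, 2 and 2 under AIL, with a ratio of 4.60 (0.515 to 218). For PSG11 and PSG3 the groups overlapped and the counting intervals include 1, and at this depth the values do not separate the groups.

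**Figure D2:**
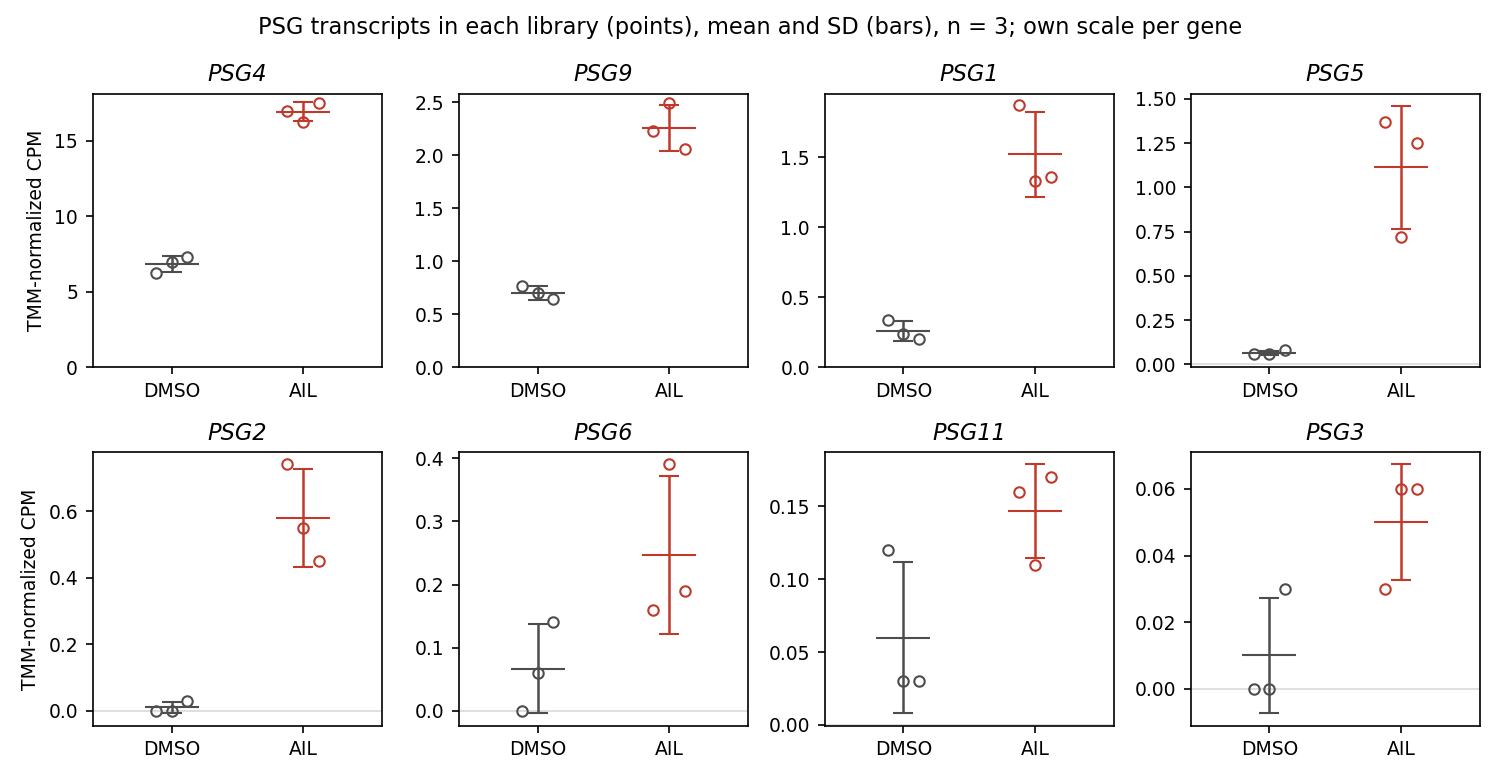
TMM-normalized CPM of each PSG gene in the 3 DMSO and the 3 AIL libraries (points), with the mean and SD (bars, n = 3), each gene on its own scale. The groups are apart for PSG4, PSG9, PSG1, PSG5, PSG2 and PSG6 and overlap for PSG11 and PSG3.

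The mean was higher under AIL in 8 of the 8 members, and in 6 every AIL library was above every DMSO library. Over all 13439 rows of the table, 26.9% met the latter condition. In the fit across genes (limma on log2(CPM + 1), Benjamini-Hochberg adjusted p under 0.05), 28.2% of the 11069 genes tested were called higher, 25.9% lower and 54.1% in either direction. PSG4 and PSG9 entered this fit and were called higher, but PSG9 reached the minimum of 1 CPM only through the AIL libraries. With no filter on low values, 6 of the 8 members were called higher (all but PSG3 and PSG11), where 23.4% of the 13437 genes fitted were called higher. Since the members were chosen on this comparison, nothing is read from these counts. On the log2(CPM + 1) scale, which compresses the change of low genes, the differences between AIL and DMSO were 1.19 for PSG4, 0.99 for PSG1, 0.97 for PSG5, 0.94 for PSG9 and 0.64 for PSG2. They were 0.22 for PSG6, 0.11 for PSG11 and 0.06 for PSG3, against a median of 0.01 over all genes tested. The order depended on the pseudocount: with 0.1 in place of 1 the largest differences were 2.82 for PSG5, 2.62 for PSG2 and 2.17 for PSG1, and PSG4 measured 1.30. With a pseudocount of 5, PSG4 measured 0.89 and PSG5 0.27. Nearest to the minimum of 1 CPM for testing were PSG9, inside it at a mean of 1.48 CPM, and PSG1, outside it at 0.89 CPM.

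**Figure D3:**
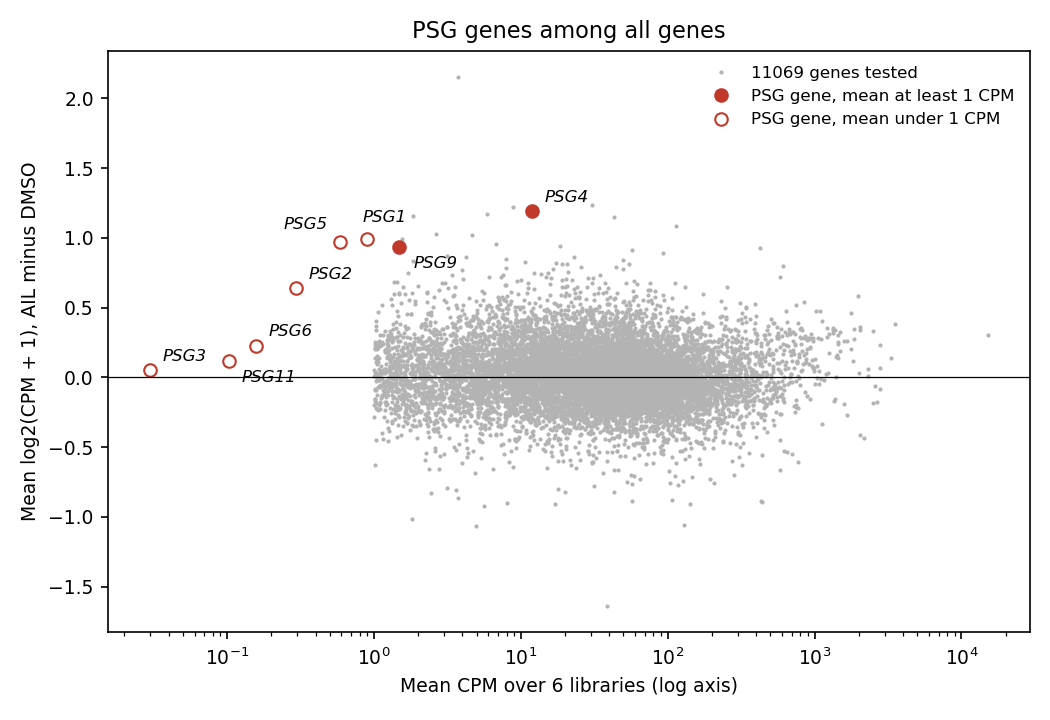
Difference in mean log2(CPM + 1) between AIL and DMSO (vertical axis) against mean CPM over the 6 libraries (log axis) for the 11069 genes tested (grey) and the 8 PSG genes (red, open where the mean was under 1 CPM). All PSG genes lie above 0, from 0.06 for PSG3 to 1.19 for PSG4, and PSG4 stands near the upper edge of the genes at its level.

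The members were then compared with each other at equal transcript length, in CPM per kb of the transcript with the longest coding sequence. Under DMSO the order began with PSG4 at 3.16 ± 0.253, PSG9 at 0.413 ± 0.0382 and PSG1 at 0.138 ± 0.0383 CPM per kb (SD, n = 3). The libraries of these 3 genes did not overlap each other. PSG6 (0.0479), PSG11 (0.0381) and PSG5 (0.0354) followed and overlapped one another. PSG2 (0.0065) and PSG3 (0.0058) came last and overlapped each other and PSG6, and PSG2 also overlapped PSG11.

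Under AIL the first 3 places were the same, and PSG5 and PSG2 had moved ahead of PSG6 and PSG11. PSG4 stood at 7.81 ± 0.296, PSG9 at 1.33 ± 0.127 and PSG1 at 0.808 ± 0.161 CPM per kb (SD, n = 3). PSG5 at 0.591 ± 0.184 overlapped PSG1 above it and PSG2 (0.377 ± 0.0958) below it across libraries. Within each AIL library, however, PSG1 stood above PSG5 and PSG5 above PSG2. No test was run on this order. PSG6 (0.177), PSG11 (0.0931) and PSG3 (0.0290) were the lowest.

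The family total also differed. The CPM of the 8 rows summed to 7.53, 8.08 and 8.46 in the DMSO libraries and to 23.56, 21.91 and 23.08 in the AIL libraries, a ratio of means of 2.85. Without PSG4 the other 7 rows summed to 1.29, 1.09 and 1.15 CPM under DMSO and to 6.56, 5.65 and 5.54 CPM under AIL, a ratio of 5.03. PSG4 alone made up 85.3 ± 2.07% of the summed CPM under DMSO and 74.1 ± 1.92% under AIL (SD, n = 3), and 82.1% and 69.7% when the levels were taken per kb. In these bulk samples a change in the number of cells that carry a transcript and a change in the amount per cell cannot be told apart.

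Relative to PSG4 in the same library, 3 of the other 7 members stood higher under AIL without overlap. Of the 13438 rows other than PSG4, these members included, 10 did so (0.0744%). PSG4 and these members were chosen on the same comparison, so nothing is read from this count. PSG5 measured 0.971 ± 0.118% of the CPM of PSG4 under DMSO and 6.54 ± 1.89% under AIL (SD, n = 3). PSG2 measured 0.137% and 3.43 ± 0.895%, and PSG1 measured 3.87 ± 1.41% and 8.98 ± 1.76%. Of the words of PSG4, 9.70% occur in PSG9 and 6.41% in PSG1. PSG9 measured 10.4 ± 1.82% and 13.4 ± 1.80%, and its libraries overlapped. So did those of PSG6 (0.925% and 1.47%), PSG11 (0.921% and 0.862%) and PSG3 (0.137% and 0.296%). For PSG1, PSG2 and PSG5 the measured percentage under AIL was more than 2 times that under DMSO.

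**Figure D4:**
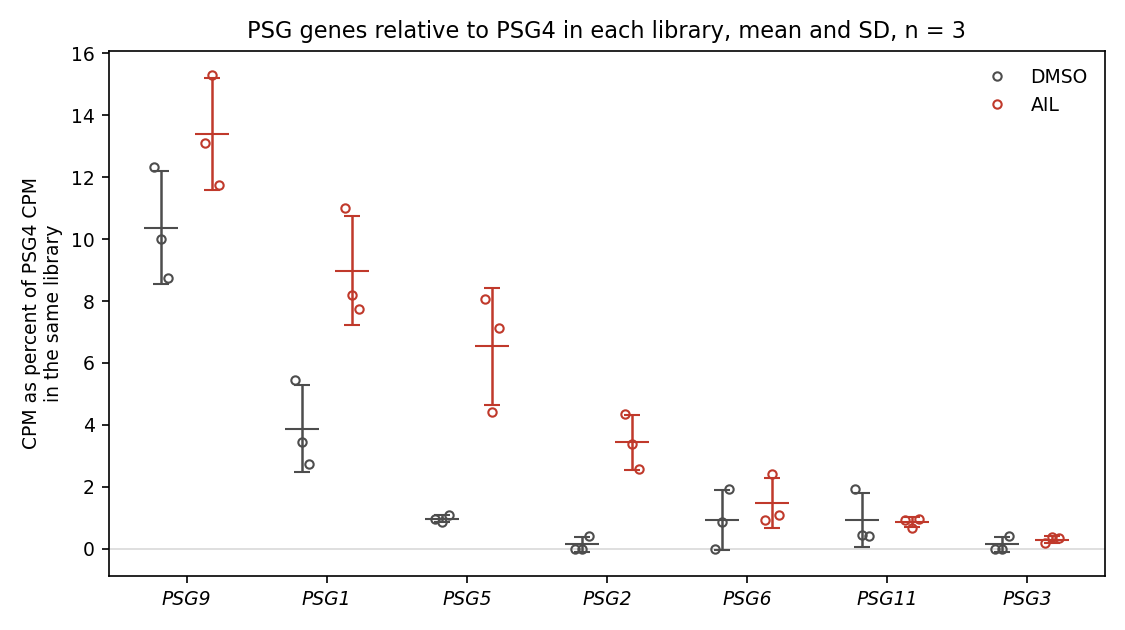
CPM of each other PSG gene as a percent of the CPM of PSG4 in the same library (points), with the mean and SD (bars, n = 3), for DMSO (grey) and AIL (red). The groups are apart for PSG1, PSG5 (0.971% against 6.54%) and PSG2 and overlap for PSG9, PSG6, PSG11 and PSG3.

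The measured ratios neither rose nor fell steadily along the chromosome. From PSG3 at 1 end to PSG9 at the other, the ratios from reads were 4.60 for PSG3, 5.95 for PSG1, 3.55 for PSG6, 2.46 for PSG11, 58.9 for PSG2, 16.2 for PSG5, 2.47 for PSG4 and 3.23 for PSG9. Among genes next to each other, PSG5 and PSG4 measured 16.2 and 2.47, while PSG2 and PSG5 held the highest ratios, 58.9 and 16.2. The counting intervals leave out the spread among libraries, and that of PSG2 runs from 10.2 to 2364. Whether these ratios differ, or go with position, was not tested. The genes on either side of the cluster were taken as the 10 nearest in the table on each side, which begin with LIPE 294 kb before it and LYPD3 191 kb after it. Of the 12 that reached 1 CPM, 3 rose, none fell and 9 were not called, with a median log2 difference of 0.07. This is 25.0% called, all higher, where 28.2% of all genes were called higher and 54.1% in either direction. IRGQ rose by 0.19 (limma adjusted p = 9.60e-04), ETHE1 by 0.17 (adjusted p = 0.0215) and ZNF428 by 0.15 (adjusted p = 0.0363), while ZNF576 measured 0.16 (adjusted p = 0.0501, or 0.0387 with the replicate number as a block). Without AIL replicate 1, 1 of the 12 was called. The call of ETHE1 was lost without DMSO replicate 1, AIL replicate 1 or AIL replicate 2, and that of ZNF428 without any of these or without DMSO replicate 3. The differences of the 12 ranged from -0.09 to 0.21, below those of PSG4 and PSG9. Of the members under 1 CPM, PSG3 (0.06) and PSG11 (0.11) lay inside this range. PSG6 (0.22), PSG2 (0.64), PSG5 (0.97) and PSG1 (0.99) lay above it. The members were chosen on this comparison, so nothing is read from their place. Of 12 written relatives in the CEACAM branch of the family, CEACAM19 was the only row analysed here. It measured 0.27 to 0.39 CPM under DMSO and 0.25 to 0.58 CPM under AIL.

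RefSeq promoters of the GRCh38.p14 build were matched for PSG3, PSG4 and PSG5 of the 8 members. Over an aligned stretch of 157 bases, PSG3 and PSG4 differed at 5 bases, PSG3 and PSG5 at 3 of the 154 aligned, and PSG4 and PSG5 at 4 of 154. Within it, 30 bases are printed from the minus strand because they hold the C-rich element near the start site, a kind of sequence that KLF and SP1 factors are known to bind. Capitals mark CCCCGCCC or CCCCACCC.
PSG3 (chr19:42740518-42740547): gtgtcctgggcctgaCCCCGCCCatgaacc
PSG4 (chr19:43205670-43205699): gtgtcctgggcctgaCCCCGCCCacgagct
PSG5 (chr19:43186538-43186567): gtgtcctgggcctgaCCCCACCCatgagcc
The RefSeq start of PSG5 lies just after the printed bases, and those of PSG3 and PSG4 lie some 30 bases further on. In GENCODE v29 the printed stretches of PSG3 and PSG4 fall in exon 1 of annotated transcripts of these genes. Among 35116 promoters of 300 bases, read on both strands, 22.8% held CCCCGCCC and 11.1% held CCCCACCC. AGGTCA, the hexamer read by retinoid and related nuclear receptors, was in none of the 3 windows (13.8% of all promoters), nor was the AP-1 element TGACTCA (4.95%). PSG3 and PSG4 carried the same 8 capital letters, and PSG4 had 1865 reads under AIL where PSG3 had 5. The part of this element in the PSG values was not tested.

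Factors known to act at PSG promoters were mostly not called. Of the 13 tested, 2 rose, 2 fell and 9 were not called, with a median log2 difference of 0.01, as over all genes. This is 30.8% called, against 54.1% of all genes. KLF6, first described as a protein that binds a PSG promoter element, rose by 0.23 on the log2 scale, from 118 ± 2.67 to 139 ± 4.79 CPM (limma, adjusted p = 9.63e-06). RARA, a retinoic acid receptor, rose from 4.99 to 7.21 CPM (0.45, adjusted p = 3.48e-05). SP1 fell by 0.13 (adjusted p = 8.89e-04) and GABPA, the DNA-binding subunit of GABP, fell by 0.11 (adjusted p = 0.00791, or 0.0569 without AIL replicate 1). KLF4 and RXRA, known as activators at the PSG5 promoter, measured 0.13 (adjusted p = 0.235) and 0.07 (adjusted p = 0.423).

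Genes listed here as binding partners of PSG proteins in human or mouse were mostly lower. The list also takes in CD81, LTBP1 and LTBP3, whose binding was not checked, and CD81 and LTBP1 are among those that fell. Of the 15 tested, 9 fell, 2 rose and 4 were not called, with a median of -0.29 against 0.01 over all genes. This is 73.3% called, where 54.1% of all genes were called and 25.9% fell. CD9, a tetraspanin, fell by 0.54, from 107 ± 1.65 to 73.1 ± 1.61 CPM (limma, adjusted p = 2.49e-10). ITGA5, the alpha chain of the fibronectin receptor, fell by 0.61 (adjusted p = 8.69e-09) and its partner ITGB1 fell by 0.41 (adjusted p = 8.22e-10). SDC4, a cell-surface heparan sulfate proteoglycan, fell by 0.40 (adjusted p = 1.20e-08). The 2 that rose were LGALS1, which encodes galectin-1, and TGFB2, each by 0.20, named here after their values were seen. TGFB1, whose latency peptide binds PSG1, measured 33.2 ± 1.27 CPM under DMSO and 32.4 ± 1.75 CPM under AIL (-0.03, adjusted p = 0.551).

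Genes of the TGF-beta pathway moved in both directions. Of the 25 receptors, SMADs and targets tested, 13 fell, 5 rose and 7 were not called, with a median of -0.10. This is 72.0% called, against 54.1% of all genes, of which 28.2% rose and 25.9% fell. TAGLN, an actin-binding protein, rose by 0.71 (limma adjusted p = 1.17e-08) and INHBA, the activin A subunit, rose by 0.33. PMEPA1, a target that restrains the pathway, fell by 0.87 (adjusted p = 1.17e-07) and COL4A1, a basement membrane collagen, fell by 0.46.

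**Figure D5:**
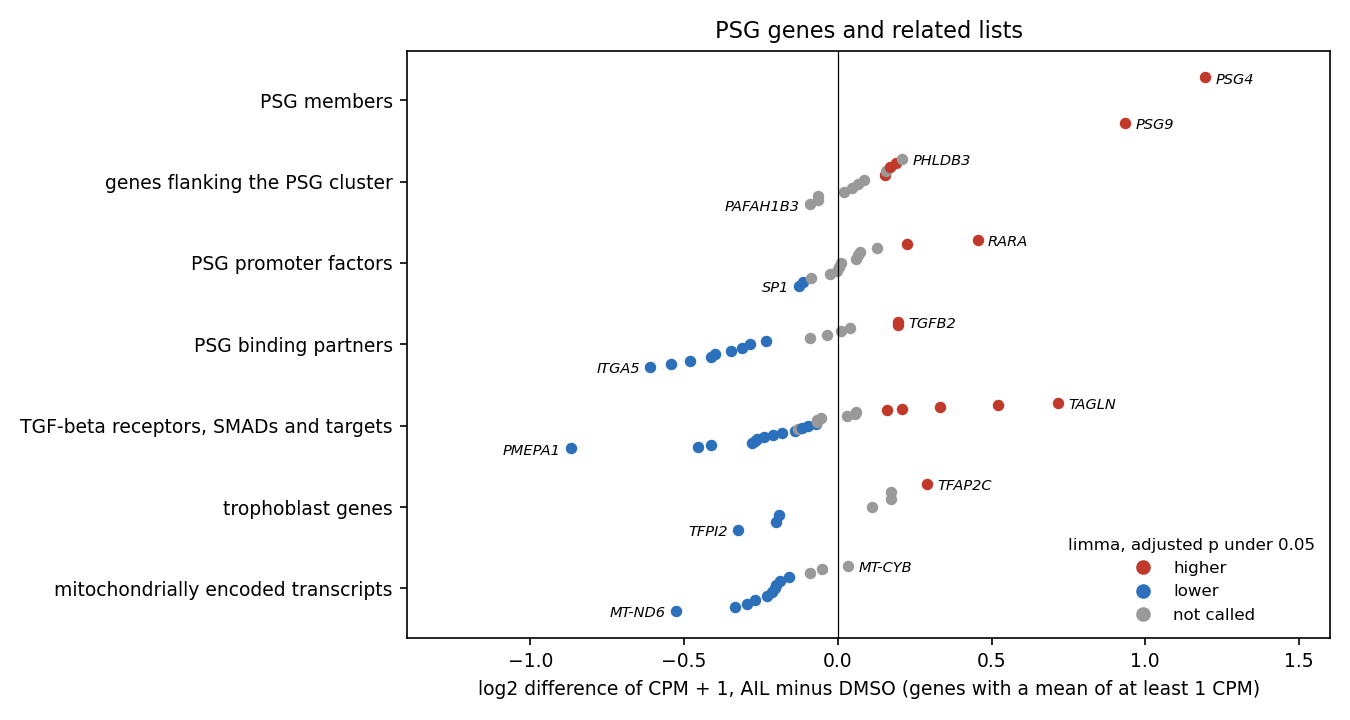
Log2 difference of CPM + 1 between AIL and DMSO for each gene with a mean of at least 1 CPM in the PSG family and 6 related lists, coloured by the limma call (red higher, blue lower, grey not called). PSG4 (1.19) and PSG9 (0.94) lie to the right of every gene of the other lists, and most genes listed as binding partners lie to the left of 0. PSG genes with a mean under 1 CPM are not drawn, and the family was chosen on this comparison.

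Other genes of the placenta were checked because trophoblast is the usual source of PSG transcripts. Of 49 trophoblast genes written down, 14 were analysed here and 7 reached 1 CPM, of which 1 rose, 3 fell and 3 were not called, with a median of 0.11. The share called, 57.1%, was near the 54.1% of all genes. TFAP2C, a transcription factor also made in other tissues, rose from 23.8 ± 0.981 to 29.3 ± 0.310 CPM (limma adjusted p = 3.32e-05). TFPI2, a protease inhibitor abundant in placenta, fell by 0.32 (adjusted p = 8.17e-09), and PEG10 and PHLDA2, both imprinted, fell by 0.19 and 0.20. Of 15 defining trophoblast markers, 4 were analysed here, and PAPPA, KISS1 and GATA3 were under 1 CPM in every library. KISS1 measured 0.09 to 0.18 CPM under DMSO and 0.25 to 0.42 CPM under AIL, while the groups overlapped for PAPPA and GATA3. The 4 summed to 23.5 to 25.39 CPM under DMSO and to 29.92 to 30.36 CPM under AIL, nearly all of it TFAP2C. The part of these markers in the PSG values was not tested.

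The cell type was taken from the labels, and 11 osteoblast markers were looked up, of which 5 were analysed here. RUNX2, the master factor of the lineage, measured 4.36 to 5.04 CPM, while BGLAP, SPP1 and SPARC did not exceed 0.28 CPM in any library. The low values of BGLAP, SPP1 and SPARC do not bear out the osteoblast label, and the identity of the line was not tested. In the wider list of osteoblast genes, TNFRSF11B, a decoy receptor for RANKL, fell by 0.33 (limma adjusted p = 0.0142) and RUNX2 was not called (0.02, adjusted p = 0.868). The call of TNFRSF11B was lost without DMSO replicate 1 or DMSO replicate 2. Over the whole series, TMM-scaled depths were 32540000 to 35830000 reads in the DMSO libraries and 35910000 to 38050000 in the AIL libraries. Of the 13 mitochondrially encoded transcripts, 10 fell and 3 were not called (76.9% called, against 54.1% of all genes), with a median of -0.20. The part of this shift in the PSG values was not tested.

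The genes most like the family over the 6 samples were ranked by the root mean square distance between log2 profiles, each taken relative to its DMSO mean, among 11067 genes outside the family. MMP3, a matrix metalloproteinase, came nearest to the summed PSG profile at a distance of 0.155, with 17.7 ± 1.37 CPM under DMSO and 43.2 ± 2.28 CPM under AIL (SD, n = 3). KRTAP2-3, a keratin-associated protein, followed at 0.163, from 4.94 ± 0.191 to 12.8 ± 0.937 CPM. OSGIN1 (0.191), CD68 (0.210), a macrophage and lysosome marker, and ADM (0.212), the adrenomedullin gene, completed the first 5. As the summed profile is mostly PSG4, this list describes genes that resemble PSG4 more than the low members.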

How the data were processed

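RNA-seq of 6 samples (3 AIL, 3 DMSO) was read from a single table that the authors deposited as TMM-normalized CPM with 2 decimals. The submitters' processing notes name the tools RSEM and edgeR 3.8.5, with no role for either. Per the labels' protocols, TruSeq libraries were made from TRIzol RNA. Aligner, genome build, gene annotation and strand setting were not given in the sources used here. All per-sample columns were used.

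The members and the 8 gene lists were chosen with earlier results of these data known. Log2(CPM + 1) values were fitted by limma 3.58.1 (R 4.3.3), two-sided and with an intensity trend. The fit held the 11069 genes whose mean reached 1 CPM, and p-values were adjusted by Benjamini-Hochberg. Read numbers were recovered from the value of 1 read per library. A count test needed 95% of values within 0.1 reads of a whole number, and rounding left 52.5 to 66.6% of values up to 30 CPM there, so none was run. Ratios have exact conditional 95% intervals from the same recovered reads, rounded to whole numbers and pooled over the libraries of each group. These intervals thus share that limit, take in no spread among libraries and are given as a description. Named genes were every PSG row, the 4 tested members of each list with the smallest p, and some fixed in name (TGFB1, KLF6, KLF4, RXRA, RUNX2 among them).

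Deviations from the group mean correlated at 0.159, 0.133 and 0.129 for same-numbered samples, and at -0.179 to 0.0210 for samples of unlike number. Such deviations cancel within a group, so these correlations are not independent of each other. The labels give no pairing, and these weak values do not establish one. The alternatives were other pseudocounts (0.1 and 5), filters, scalings, a replicate block, no intensity trend, levels per kb, and leaving out each sample. A result for 1 osteoblast gene is not reported here.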

Additional observations from a re-analysis of the deposited data

How the results depend on the processing

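Over all genes, 5991 were called. With the replicate block 6468 were called (3347 higher, 3121 lower), and the block changed neither the PSG count nor any call of a named gene but that of ZNF576. The count over all genes was 5305 to 6194 when a sample was left out. The PSG members called higher numbered 2, and were 6 with no filter, 1 with the minimum at 5 CPM, and 2 to 3 without 1 sample. The ratio of the summed PSG level was 2.76 to 2.93 without 1 sample. Per kb, the PSG4 share was 82.1% under DMSO and 69.7% under AIL. Without 1 sample it was 84.6 to 86.5% and 73.2 to 75.1%. Genes flanking the cluster called numbered 3, but 5 with pseudocount 5, 1 with quantile normalization and 1 to 4 without 1 sample (1 without AIL replicate 1). Osteoblast genes called numbered 2 of the 3 tested (66.7%, where 54.1% of all genes were called). They numbered 1 with no filter (7 tested), with the minimum at 5 CPM (1 tested) and with no intensity trend. With median-of-ratios scaling and with quantile normalization they also numbered 1, and 0 to 2 without 1 sample. RUNX2 turned to -0.025 with quantile normalization, and without 1 sample it ranged from -0.022 to 0.054 (below 0 without DMSO replicate 2 and without AIL replicate 3). RXRA ranged from -0.012 (without AIL replicate 1) to 0.12, and TGFB1 from -0.073 to 0.0023 (without AIL replicate 3). The cause was not tested. Of 485 log2 differences of the 35 named genes outside the family, 454 kept their direction and their side of the threshold. No PSG difference changed sign. Depth limits PSG3, PSG6, PSG11 and the control values of PSG2 and PSG5, each with at most 7 reads over the DMSO libraries.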
